A study of Mus musculus with 9 samples.

Results

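The 8 genes described here encode the CLC chloride-proton exchangers of endosomes and lysosomes (Clcn3, Clcn4, Clcn5, Clcn6 and Clcn7) and 3 proteins that associate with them (Ostm1, Tmem9 and Tmem9b). They were chosen by gene symbol as a protein family and its partners, with no threshold on a measured value but with earlier results of these data known, and mapped to Ensembl identifiers through a GENCODE annotation of the mouse mm10 build. They are 8 of the 55487 genes counted, and all 8 were among the 13453 genes with enough reads to be tested. RNA was measured by RNA-seq in J774A.1, an established mouse macrophage line, in 9 libraries. The 3 control libraries came from cells given a Safe sgRNA and are labelled WT (safe libraries below). A further 3 libraries came from cells given SLC12A9 sgRNA 11 and 3 from cells given SLC12A9 sgRNA 15. The labels call these 6 libraries knockdown whereas the design text speaks of knockout. All 9 cultures were grown in medium with 10% fetal bovine serum and L-glutamine and were then kept for 6 h in medium without serum or glutamine before RNA was taken, so no group was measured in full medium. The labels do not say whether replicates were separate cultures or separately edited populations, nor whether a guide population is 1 clone, and p-values therefore measure only the spread between these libraries.

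CLC exchangers carry chloride into an acidic compartment while moving protons out of it, and they work beside the V-type proton pump, whose current their chloride entry balances. ClC-7, the product of Clcn7, is the lysosomal member and is stable only with its beta subunit Ostm1. Loss of either one causes osteopetrosis and lysosomal storage disease. ClC-6 sits in late endosomes. ClC-3, ClC-4 and ClC-5 act in endosomes, and loss of ClC-5 from kidney proximal tubule causes Dent disease. Tmem9 and Tmem9b are membrane proteins that bind ClC-3, ClC-4 and ClC-5. Slc12a9, the gene the guides target, belongs to the cation-chloride cotransporter family.

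The promoters of Clcn7, Clcn6, Clcn4 and Ostm1 are printed because the first 3 hold the E-box CACGTG and because Clcn7 and Ostm1 encode the subunits of 1 complex. CACGTG is the core of the sites bound by the MiT/TFE factors that drive many lysosomal genes, and also by other E-box factors. Each sequence is read 5′ to 3′ on the strand of its gene, from 170 bases before to 30 bases after a RefSeq start site (RefSeq, GRCm38.p6, the mm10 build), in lower case with CACGTG in capitals. The windows lie at chr17:25133221-25133420 on the plus strand for Clcn7, chr4:148038784-148038983 on the minus strand for Clcn6, chr7:7299528-7299727 on the minus strand for Clcn4 and chr10:42678746-42678945 on the plus strand for Ostm1.
Clcn7: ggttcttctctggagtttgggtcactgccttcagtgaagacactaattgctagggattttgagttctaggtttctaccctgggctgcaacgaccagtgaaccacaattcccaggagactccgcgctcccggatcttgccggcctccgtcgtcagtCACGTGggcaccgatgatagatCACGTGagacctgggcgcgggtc
Clcn6: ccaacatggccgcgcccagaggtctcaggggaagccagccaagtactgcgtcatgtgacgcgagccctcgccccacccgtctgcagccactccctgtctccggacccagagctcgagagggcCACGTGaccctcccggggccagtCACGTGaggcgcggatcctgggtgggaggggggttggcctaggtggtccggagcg
Clcn4: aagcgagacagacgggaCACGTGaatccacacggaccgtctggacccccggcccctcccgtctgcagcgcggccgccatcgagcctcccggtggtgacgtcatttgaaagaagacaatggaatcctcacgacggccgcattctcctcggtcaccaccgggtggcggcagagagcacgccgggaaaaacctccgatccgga
Ostm1: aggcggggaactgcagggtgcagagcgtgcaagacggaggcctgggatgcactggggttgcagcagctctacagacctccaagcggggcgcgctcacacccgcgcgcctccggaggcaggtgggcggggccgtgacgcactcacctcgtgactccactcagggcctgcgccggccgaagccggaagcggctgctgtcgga

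All 8 genes matched the RefSeq promoter table, with 14 start-site windows of 300 bases among them. CACGTG, which reads the same on both strands, occurred in windows of 3 of the 8 genes. Clcn7 held it at -15 and at 8 relative to the start site, with 22 bases between the starts of the copies. Clcn6 also held a pair, at -48 and -25, with 23 bases between their starts. Clcn4 held a single copy at -153. Across the table, 2187 of 27025 genes (8.09%) had at least 1 copy in a window, and 184 (0.681%) had 2 in the same window. Counted by window, 3 of the members' 14 held a copy, against 2349 of 32851 (7.15%) in the table. The longer TCACGTG, which contains CACGTG and was searched on both strands, was found in the same 3 genes and in 4.29% of all genes. TGATGNAA, the composite element bound by ATF4 with C/EBP partners, searched on both strands, was in none of the 14 windows and in 4.51% of all genes. A match describes the letters of a window and not a bound site. The RefSeq start of the printed Clcn4 window lies 1294 bases inside the GENCODE gene, and that of the Ostm1 window 95094 bases inside. The Ostm1 window and the other windows without a match say only that these letters are not there.

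The libraries held 16405296 to 25613961 reads assigned to genes, and each member had 280 to 2820 reads in a library. Levels are given as CPM, the usual depth-scaled read count, after TMM scaling to gene-assigned reads, and a gene was called changed at an adjusted p under 0.05 over all tested genes in edgeR's quasi-likelihood test. No replicate pair agreed within sampling noise, and safe replicate 1 stood farthest from its group, its chi-square over degrees of freedom being 6.83 to replicate 2 and 5.16 to replicate 3. Slc12a9 mRNA, the target, measured 44.8, 53.5 and 47.0 CPM without a targeting guide, 62.6, 66.3 and 67.0 with sgRNA 11, and 48.2, 50.01 and 51.7 with sgRNA 15. It was therefore higher with sgRNA 11 (log2 fold change 0.43, adjusted p = 6.45e-13) and did not pass the test with sgRNA 15 (0.05, adjusted p = 0.426). The message of the targeted gene was lowered by neither guide, so every direction below is that of libraries labelled with a guide. Read counts per gene do not show whether the gene was edited or its protein lost. The 10 macrophage markers were all detected, and their summed level was 6065 to 6221 CPM in the safe libraries, 9519 to 9824 with sgRNA 11 and 7844 to 7915 with sgRNA 15. Lyz2, the lysozyme gene, alone gave 1658 to 1862, 4429 to 4603 and 3537 to 3609 CPM of this, and the other 9 markers summed to 4359 to 4415, 5090 to 5221 and 4291 to 4307 CPM, so without Lyz2 the sum was not higher with sgRNA 15 than in safe. Of the 10 markers 8 rose and 2 fell with sgRNA 11, and 6 rose and 3 fell with sgRNA 15. Most tested genes were called with each guide (65.8% with sgRNA 11 and 62.9% with sgRNA 15). The part of the markers in the results was not tested. Summed markers of epithelial cells reached at most 0.0558 CPM and those of lymphoid cells 0.317, while summed fibroblast markers were 1.21 to 2.61 CPM, with Col1a2, Dcn and Lum at 0 in every library, and summed neutrophil markers 1.72 to 4.12 CPM, with S100a9 and Ngp at 0.

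Against the safe libraries, the lysosomal exchanger Clcn7 and its beta subunit Ostm1 rose with both guides, as did the partner genes Tmem9 and Tmem9b. Clcn6 fell with both. Clcn3 and Clcn4 rose with sgRNA 15, by less, and did not pass the test with sgRNA 11. Clcn5 was not called with either guide. With sgRNA 11, 4 members rose, 1 fell and 3 were not called, where 65.8% of all tested genes were called (33.3% higher and 32.4% lower). With sgRNA 15, 6 members rose, 1 fell and 1 was not called, where 62.9% of all tested genes were called (32.2% higher and 30.7% lower). A large share of all genes was called, so a call alone sets no member apart. The median log2 fold change of the 8 members was 0.17 with sgRNA 11 and 0.21 with sgRNA 15, against a median of 0.01 over all tested genes in both comparisons. In bulk RNA, fewer cells with a message and less message per cell cannot be told apart. The 2 comparisons share the 3 safe libraries, so their values are given side by side and their likeness is not read as a result.

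**Figure D1:**
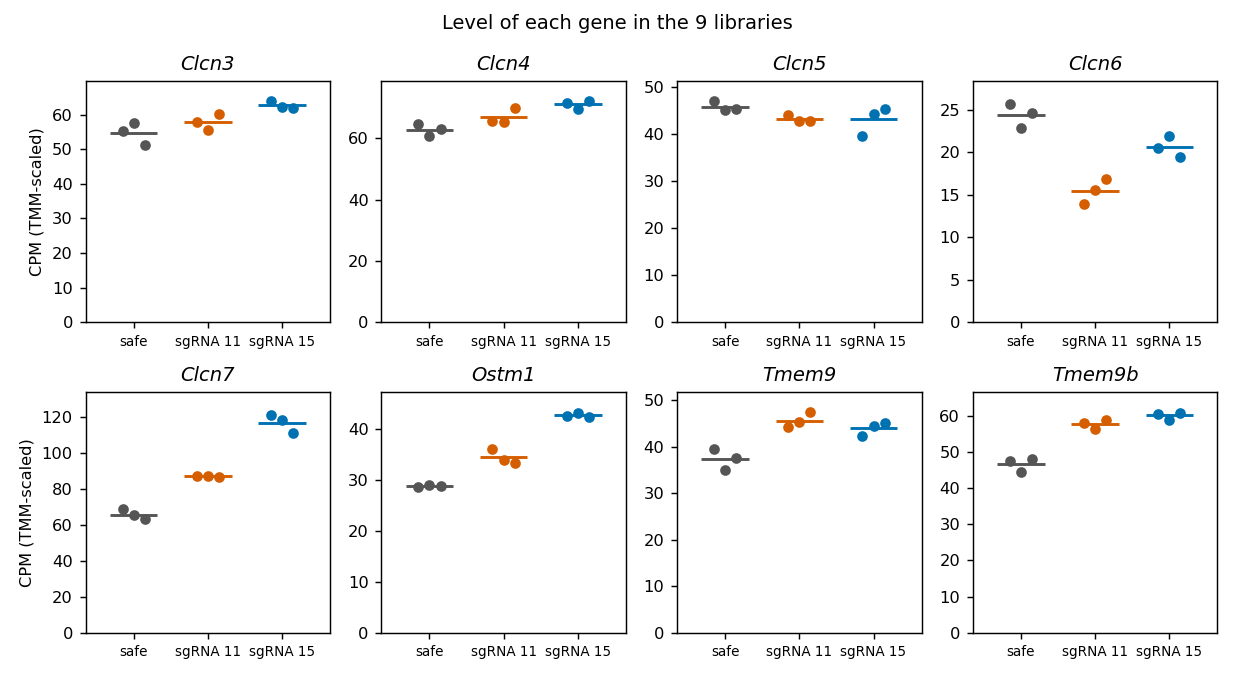
TMM-scaled CPM of each of the 8 genes in the 9 libraries, with a panel per gene, points for libraries and lines for the group mean (n = 3). Clcn7 and Ostm1 step up from safe to sgRNA 11 to sgRNA 15 without overlap, while Clcn6 is lowest with sgRNA 11.

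Clcn7 (ENSMUSG00000036636, chr17:25133391-25162104, plus strand) encodes the exchanger of lysosomes and of the osteoclast ruffled border. Its level was 68.9, 65.3 and 63.3 CPM in the 3 safe libraries, 87.3, 87.4 and 86.5 CPM with sgRNA 11, and 121, 119 and 111 CPM with sgRNA 15. The 3 groups did not overlap, and every sgRNA 15 library lay above every sgRNA 11 library. The group means were 65.8 ± 2.84 CPM, 87.1 ± 0.49 CPM and 117 ± 5.25 CPM (SD, n = 3 each). Clcn7 thus rose 1.32-fold with sgRNA 11 (log2 fold change 0.40, SE 0.04, adjusted p = 4.33e-15, edgeR). It rose 1.78-fold with sgRNA 15 (log2 fold change 0.83, SE 0.04, adjusted p = 1.22e-33, edgeR), which placed it at the 92.4th percentile of all tested genes, against the 77.5th with sgRNA 11. After a correction for GC content and length, an alternative chosen after seeing the data, the sgRNA 11 value was 0.26 and remained called.

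Ostm1 (ENSMUSG00000038280, chr10:42583822-42702459, plus strand) encodes the type I membrane protein that protects ClC-7 from degradation. Its level was 28.5, 29.0 and 28.8 CPM in the safe libraries, 36.0, 33.9 and 33.2 CPM with sgRNA 11, and 42.5, 43.0 and 42.2 CPM with sgRNA 15. As for Clcn7, the groups were fully apart and in the same order. The means were 28.8 ± 0.21, 34.3 ± 1.48 and 42.6 ± 0.40 CPM (SD, n = 3 each). Ostm1 rose 1.19-fold with sgRNA 11 (log2 fold change 0.26, SE 0.06, adjusted p = 5.21e-05) and 1.48-fold with sgRNA 15 (0.57, SE 0.06, adjusted p = 2.56e-15). Of its exon bases, 5.69% also lie in Gm15200 on the other strand. Whether the counting used strand is not given in the sources used here. It is therefore not known whether reads in that stretch were counted for Ostm1 or set aside as ambiguous.

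Clcn6 (ENSMUSG00000029016, chr4:148004259-148038821, minus strand) encodes the late-endosomal exchanger, known mainly from neurons. It had the lowest CPM of the members in every group, with 25.7, 22.8 and 24.6 CPM in the safe libraries, 13.9, 15.6 and 16.9 CPM with sgRNA 11, and 20.6, 21.9 and 19.4 CPM with sgRNA 15. All 6 guide libraries lay below all 3 safe libraries, and all 3 sgRNA 15 libraries lay above the sgRNA 11 libraries, so the deeper fall was with sgRNA 11. Group means were 24.4 ± 1.45, 15.5 ± 1.50 and 20.6 ± 1.24 CPM (SD, n = 3 each). Clcn6 was 1.58-fold lower with sgRNA 11 (log2 fold change -0.66, SE 0.08, adjusted p = 1.49e-12). With sgRNA 15 it was 1.18-fold lower (log2 fold change -0.24, SE 0.07, adjusted p = 0.00338). Its change with sgRNA 11 was at the 7.75th percentile of all tested genes and its change with sgRNA 15 at the 27.3th. Clcn6 and Clcn7, whose promoter windows both hold paired CACGTG copies, went in opposite directions from the safe libraries. Whether these copies had a part in either value was not tested.

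Clcn3 (ENSMUSG00000004319, chr8:60910389-60983300, minus strand) encodes an exchanger of endosomes and synaptic vesicles that can pair with ClC-4. Its level was 55.2, 57.7 and 51.4 CPM in the safe libraries, 57.9, 55.7 and 60.3 CPM with sgRNA 11, and 64.0, 62.3 and 62.1 CPM with sgRNA 15. The safe and sgRNA 11 libraries overlapped, and the sgRNA 15 libraries lay above both. Clcn3 rose 1.15-fold with sgRNA 15 (log2 fold change 0.20, SE 0.05, adjusted p = 0.000122). With sgRNA 11 the log2 fold change was 0.08 (SE 0.05, adjusted p = 0.107), which became called without TMM scaling (0.12, adjusted p = 0.0220), with a minimum mean of 5 CPM (0.11, adjusted p = 0.0301) and with the GC and length correction (0.15, adjusted p = 0.00233).

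Clcn4 (ENSMUSG00000000605, chr7:7282309-7300851, minus strand) encodes the exchanger that depends on ClC-3 for its place in endosomes. It had 64.6, 60.8 and 62.9 CPM in the safe libraries, 65.6, 65.4 and 69.8 CPM with sgRNA 11, and 71.4, 69.6 and 72.3 CPM with sgRNA 15. Both guide groups lay above the safe libraries by a small margin, and they overlapped each other. The log2 fold change was 0.09 with sgRNA 11 (SE 0.04, adjusted p = 0.0538) and 0.18 with sgRNA 15 (SE 0.04, adjusted p = 0.000216), the second passing the test. The sgRNA 11 value ranged from 0.04 to 0.12 over the alternatives and was called in 7 of 19 (lowest adjusted p = 0.00772). With the GC and length correction the sgRNA 15 value was 0.08 (adjusted p = 0.0813) and was no longer called. The Clcn4 values are uncertain also because 11.5% of its exon bases lie in Gm45631 on the other strand.

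Clcn5 (ENSMUSG00000004317, chrX:7153810-7319358, minus strand) encodes the endosomal exchanger best known from kidney. It had 47.2, 45.2 and 45.3 CPM in the safe libraries, 44.1, 42.8 and 42.9 CPM with sgRNA 11, and 39.7, 44.4 and 45.5 CPM with sgRNA 15. The sgRNA 11 libraries lay just below the safe ones, and the sgRNA 15 libraries overlapped them, with replicate 1 the lowest of all 9. The log2 fold change was -0.09 with sgRNA 11 (95% interval -0.19 to 0.01, adjusted p = 0.129) and -0.09 with sgRNA 15 (-0.20 to 0.01, adjusted p = 0.111, edgeR). Clcn5 was called with sgRNA 15 after the GC and length correction (-0.16, adjusted p = 0.00372) and without sgRNA 15 replicate 3 (-0.14, adjusted p = 0.0283). For the mean of both guides against safe it was called lower in 6 of 18 alternatives, whose values ran from -0.12 to -0.05 over all 18.

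Tmem9 (ENSMUSG00000026411, chr1:136008150-136035342, plus strand) encodes a lysosomal and endosomal membrane protein that binds the endosomal exchangers. Its level was 39.4, 35.0 and 37.6 CPM in the safe libraries, 44.3, 45.2 and 47.4 CPM with sgRNA 11, and 42.4, 44.5 and 45.1 CPM with sgRNA 15. Every guide library lay above every safe library, and the guides overlapped each other. Tmem9 rose by a log2 fold change of 0.29 with sgRNA 11 (SE 0.05, adjusted p = 1.44e-06) and 0.23 with sgRNA 15 (SE 0.05, adjusted p = 8.74e-05). The GC and length correction brought these to 0.16 and 0.15, both still called.

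Tmem9b (ENSMUSG00000031021, chr7:109735834-109752875, minus strand) is the paralog of Tmem9. It had 47.4, 44.4 and 48.1 CPM in the safe libraries, 58.1, 56.3 and 58.8 CPM with sgRNA 11, and 60.4, 59.0 and 60.9 CPM with sgRNA 15. The 3 groups did not overlap, although the sgRNA 11 and sgRNA 15 libraries were close. Tmem9b rose 1.24-fold with sgRNA 11 (log2 fold change 0.31, SE 0.05, adjusted p = 1.22e-08) and 1.29-fold with sgRNA 15 (0.36, SE 0.05, adjusted p = 8.30e-11). Its values are uncertain to the extent that 13.9% of its exon bases lie in 4930431P19Rik on the other strand.

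Across the members, 5 of 8 had sgRNA 11 libraries wholly above the safe libraries (Clcn4, Clcn7, Ostm1, Tmem9 and Tmem9b) and 2 wholly below (Clcn5 and Clcn6), where 34.3% of all tested genes lay wholly above and 33.3% wholly below. With sgRNA 15, 6 of 8 lay wholly above (Clcn3, Clcn4, Clcn7, Ostm1, Tmem9 and Tmem9b) and 1 wholly below (Clcn6), where 33.5% and 32.3% of all tested genes did. For comparison, 65.8% and 62.9% of all tested genes were called against safe with the respective guide. The members called higher with both guides were Clcn7, Ostm1, Tmem9 and Tmem9b, where 26% of all tested genes were, and Clcn6 was called lower with both, where 25.7% were. Calls in opposite directions, which 1.88% of tested genes had, were absent among the 8 members by these edgeR tests. For the mean of both guides, 6 members rose and 1 fell, where 68% of all tested genes were called (34.7% higher and 33.3% lower).

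**Figure D2:**
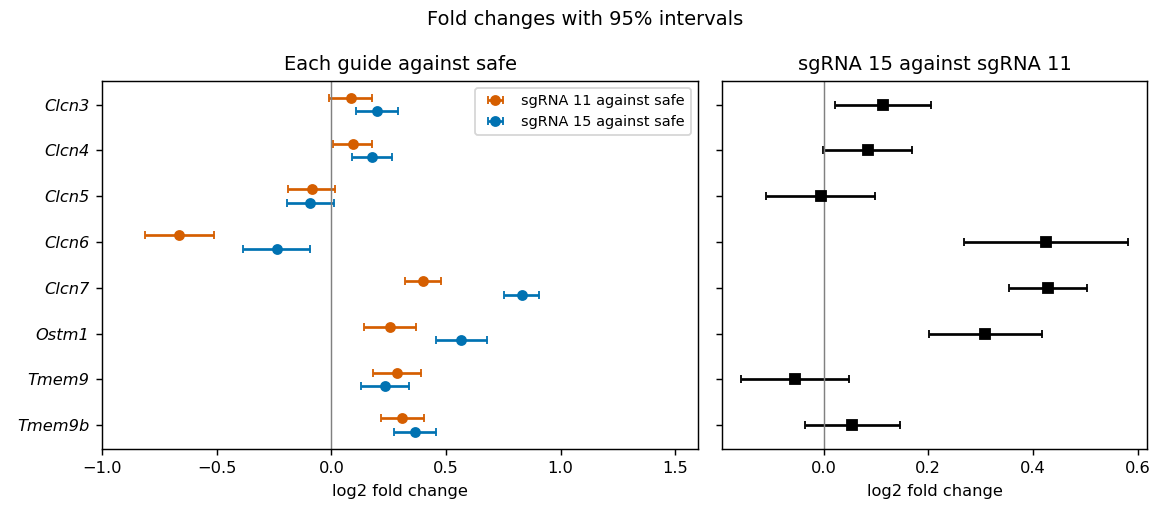
Log2 fold changes of the 8 genes with their 95% intervals, on the left for each guide against safe (n = 3 libraries per group) and on the right for sgRNA 15 against sgRNA 11. Clcn7 has the largest positive value on the left (0.40 and 0.83), Clcn6 is negative with both guides, and on the right Clcn6, Clcn7 and Ostm1 lie farthest above 0.

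**Figure D3:**
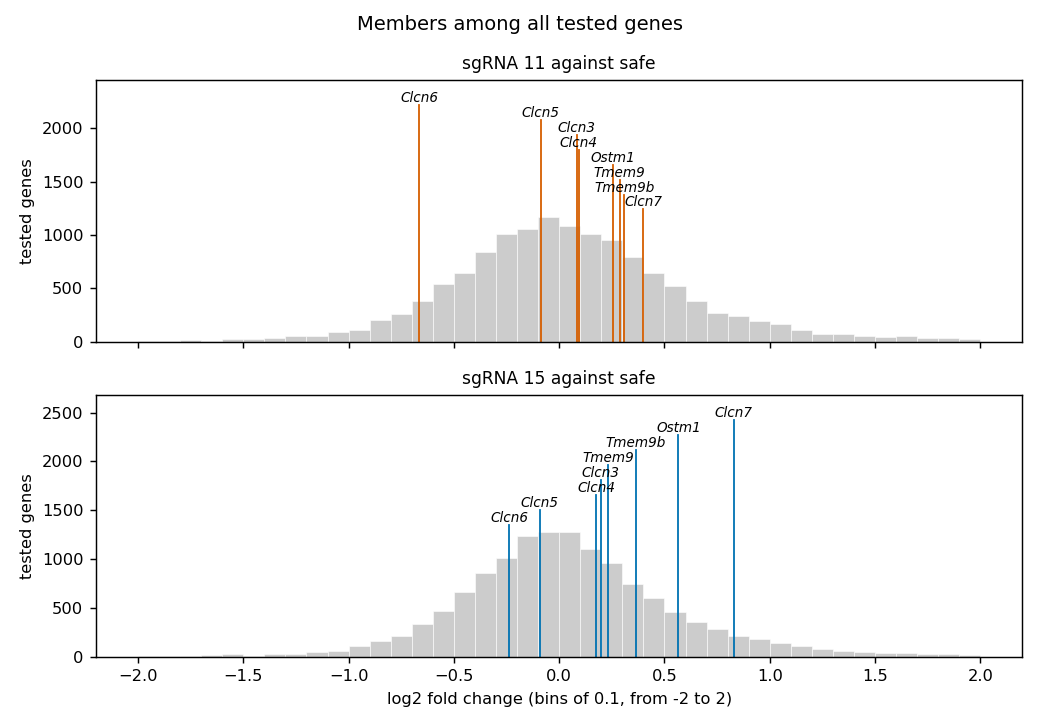
Number of tested genes per bin of log2 fold change for each guide against safe, drawn from -2 to 2, with lines at the values of the 8 genes. With sgRNA 11 Clcn6 lies farthest from 0 (-0.66), and with sgRNA 15 Clcn7 (0.83) and then Ostm1 (0.57) do.

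The guides were then compared directly, which tests whether their effects on a gene differ and does not involve the safe libraries in the difference. Clcn7, Ostm1 and Clcn6 were higher with sgRNA 15 than with sgRNA 11, and Clcn3 by less. In all, 4 members were higher with sgRNA 15, none lower and 4 not called, where 33.5% of all tested genes were called (18% higher and 15.5% lower). The median of the 8 members was 0.10, against 0.01 over all tested genes. Clcn7 differed by a log2 fold change of 0.43 (SE 0.04, adjusted p = 4.84e-17) and Ostm1 by 0.31 (SE 0.05, adjusted p = 1.83e-06). For both genes this put sgRNA 15 farther from safe than sgRNA 11. Clcn6 differed by 0.43 as well (SE 0.08, adjusted p = 5.42e-06), but there it put sgRNA 15 nearer to safe. Clcn3 differed by 0.11 (SE 0.05, adjusted p = 0.0450), a call kept in 6 of 19 alternatives and absent with the GC and length correction (0.00, adjusted p = 0.992).

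For the remaining members the difference between guides was not called. Its 95% interval ran from 0.00 to 0.17 for Clcn4 (log2 fold change 0.08, adjusted p = 0.123) and from -0.11 to 0.10 for Clcn5 (-0.01, adjusted p = 0.951). For Tmem9 it ran from -0.16 to 0.05 (-0.05, adjusted p = 0.463) and for Tmem9b from -0.04 to 0.15 (0.06, adjusted p = 0.383, edgeR). The intervals of Tmem9 and Tmem9b thus leave out a difference as large as those of Clcn7 and Ostm1, whose lower bounds were 0.35 and 0.20. The macrophage markers ran the other way between the guides, with 2 of 10 higher and 7 of 10 lower with sgRNA 15. Of all tested genes, 18% were higher and 15.5% lower.

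Levels of different genes were compared per length, as CPM per kilobase of the union of a gene's exons. In the safe libraries the order was Tmem9b (23.3), Tmem9 (13.7), Clcn7 (12.4), Clcn4 (7.32), Clcn6 (4.11), Clcn5 (4.01), Ostm1 (3.99) and Clcn3 (3.21). Tmem9 and Clcn7 overlapped there, as did Clcn6, Clcn5 and Ostm1 with their neighbours in the order, and the other neighbours were apart. Clcn7 was thus the exchanger with the most RNA per length, and Ostm1 had 32.1% ± 1.55 of its level (SD, n = 3). With sgRNA 11 the order was Tmem9b (28.8), Tmem9 (16.7), Clcn7 (16.5), Clcn4 (7.81), Ostm1 (4.76), Clcn5 (3.78), Clcn3 (3.40) and Clcn6 (2.60), with overlap only between Tmem9 and Clcn7. Clcn6 had moved to the last place. With sgRNA 15, Clcn7 (22.1) stood apart above Tmem9 (16.1) and below Tmem9b (30.01), followed by Clcn4 (8.29) and Ostm1 (5.90). The last 3, Clcn5 (3.77), Clcn3 (3.68) and Clcn6 (3.48), overlapped as neighbours.

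The choice of gene length matters to this order. By the longest transcript, the safe order put Clcn3 (6.68) next after Clcn4, overlapping Ostm1 (6.56), and Clcn6 (4.69) was last in all 3 groups. The place of Clcn7 above all other exchangers held on both lengths in all 3 groups.

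The 5 exchangers together gave 31.1 ± 1.00 CPM per kilobase in the safe libraries, 34.0 ± 0.49 for sgRNA 11 and 41.3 ± 0.89 for sgRNA 15 (SD over 3 libraries). The ranges of the groups were apart. Clcn7 took a growing share of that sum, at 40.0% ± 0.60, 48.4% ± 0.96 and 53.5% ± 1.29 (SD, n = 3). The share of Clcn6 went from 13.2% in the safe libraries to 7.64% with sgRNA 11 and 8.41% with sgRNA 15. Clcn5 held 12.9%, 11.1% and 9.13% in the same order. The shares of Clcn4 (23.6%, 22.9% and 20.1%) and Clcn3 (10.3%, 9.97% and 8.90%) were also lowest with sgRNA 15. With longest-transcript lengths the Clcn7 share was 33.8%, 40.9% and 46.1%, in the same order. These shares are descriptions of RNA, and parts of 1 sum cannot move independently.

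**Figure D4:**
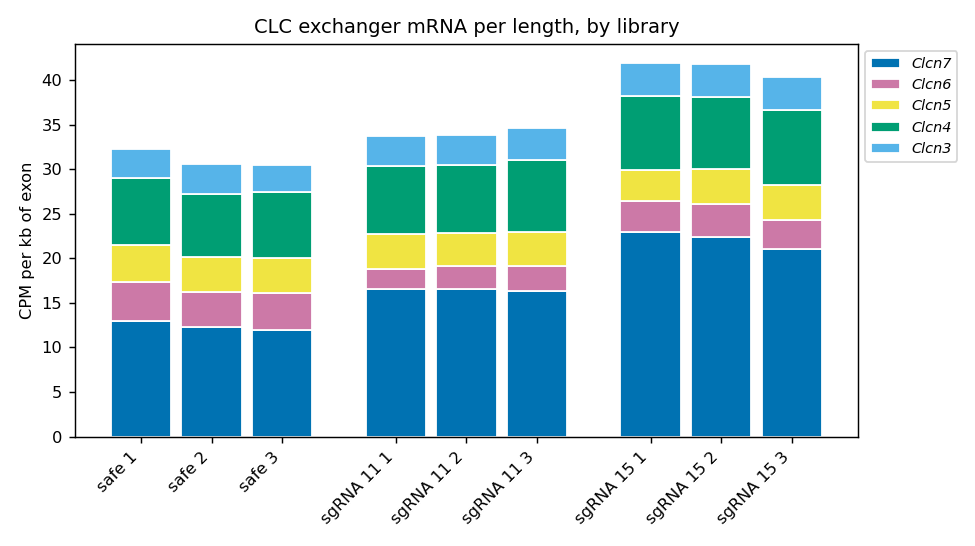
Summed CPM per kilobase of union exons of the 5 exchanger genes in each of the 9 libraries, stacked by gene. The stack is highest with sgRNA 15, and the Clcn7 layer goes from 40.0% of it in the safe libraries to 53.5% there.

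Relative to Clcn7, there was less Ostm1 RNA in the guide libraries as scaled here, a difference that for sgRNA 11 depends on the processing. The log2 ratio of Ostm1 to Clcn7 per length was -1.72, -1.62 and -1.58 in the safe libraries, -1.72, -1.81 and -1.83 with sgRNA 11, and -1.96, -1.91 and -1.84 with sgRNA 15. All sgRNA 15 libraries were below all others, and the sgRNA 11 libraries were below the safe ones, with safe replicate 1 and sgRNA 11 replicate 1 nearly touching. The mean ratio was 0.15 lower with sgRNA 11 and 0.27 lower with sgRNA 15 than in safe (differences of -0.15 and -0.27), which left Ostm1 at 28.9% and 26.7% of the Clcn7 level. With the GC and length correction the fold changes of Clcn7 and Ostm1 were close with sgRNA 11 (0.26 and 0.23 on the log2 scale) and remained apart with sgRNA 15 (0.73 and 0.49). The ratio of the Tmem9 pair to the endosomal exchangers went the other way. Summed Tmem9 and Tmem9b stood at a log2 ratio of 1.35 ± 0.06 to summed Clcn3, Clcn4 and Clcn5 in the safe libraries, 1.61 ± 0.0060 for sgRNA 11 and 1.55 ± 0.0046 for sgRNA 15 (SD over 3 libraries). The safe libraries spanned 1.28 to 1.40 and lay below all guide libraries. With 3 libraries against 3 an exact permutation test could not go under 0.05, and no test was made of these ratios.

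**Figure D5:**
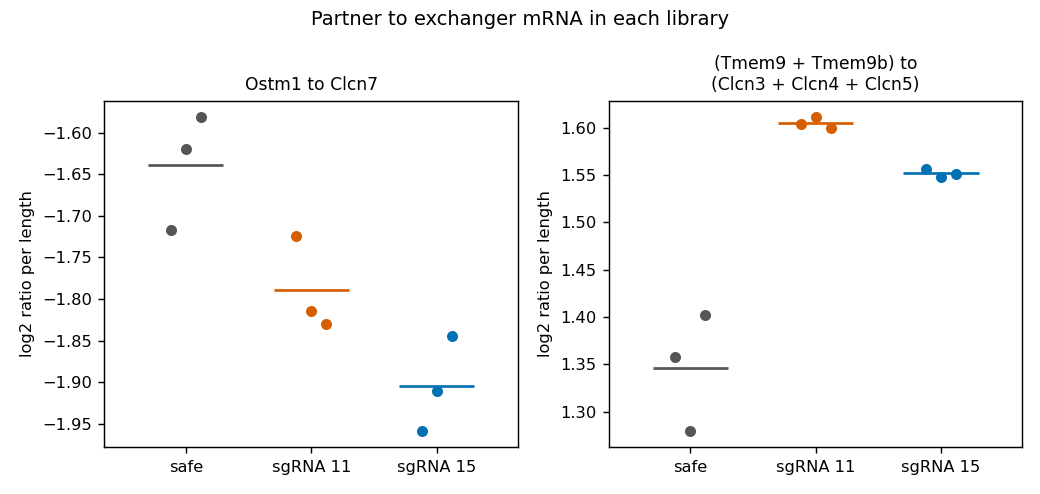
Log2 ratio per length in each library, on the left Ostm1 to Clcn7 and on the right summed Tmem9 and Tmem9b to summed Clcn3, Clcn4 and Clcn5, with lines at the group means (n = 3). The left ratio is lowest with sgRNA 15 and the right ratio is higher with both guides than in safe.

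The tested genes whose log2 CPM followed each member most closely over the 9 libraries were found by Pearson correlation among 9292 genes with a mean of at least 5 CPM. The libraries fall into 3 groups that all genes share, so these values are a description. For Clcn7 they were Rars (r = 0.997), Mpeg1 (0.996) and Sgpl1 (0.996), and for Ostm1 Bcl2l1 (0.994), Soat1 (0.993) and Aplp2 (0.993). Mpeg1 is a perforin-like protein of macrophages, and Soat1 esterifies cholesterol. For Clcn6 they were Rabep1 (0.979) and Prmt9 (0.970), for Tmem9 Snx19 (0.983), Serhl (0.978) and Bmpr2 (0.976), and for Tmem9b Lix1l (0.995), Stk11ip (0.992) and Ubald2 (0.990). For Clcn3 they were Cbr4 (0.950), Ttll1 (0.947) and Spsb2 (0.941). For Clcn4 they were Atp6v1f (0.970), a V-type pump subunit, Supt7l (0.963) and Bola3 (0.962), and for Clcn5 Ube2e2 (0.928), Dyrk2 (0.927) and Kat6a (0.914). Among the members themselves Clcn7 and Ostm1 had r = 0.984, and Clcn7 and Clcn6 had r = -0.31.

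Ion transport genes that work beside the exchangers moved in both directions. Of 29 tested genes for other endosomal and lysosomal ion transport, including the V-type pump, 17 rose and 8 fell with sgRNA 11 (median log2 fold change 0.11) and 20 rose and 5 fell with sgRNA 15 (0.29). The sgRNA 15 median lies above that of the 8 members (0.21), and the sgRNA 11 median below it (0.17). Over all tested genes, 33.3% rose and 32.4% fell with sgRNA 11, and 32.2% rose and 30.7% fell with sgRNA 15. The genes named next ranked first by p for the mean of both guides. All of them rose, so they do not stand for the whole list or for the whole pump. Atp6v1a, the catalytic subunit of the V-type pump, rose by 0.28 with sgRNA 11 and 1.03 with sgRNA 15 on the log2 scale, a larger step between guides than that of Clcn7. Mcoln1, a lysosomal cation channel, rose by 0.67 and 0.83, and Slc9a9, an endosomal sodium-proton exchanger, by 1.65 and 1.22. Atp6ap1, an accessory subunit of the pump, rose by 0.36 and 0.43.

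Of the 17 tested genes among 36 other chloride channels and their regulators, 6 rose and 4 fell with sgRNA 11 (median 0.04) and 9 rose and 1 fell with sgRNA 15 (median 0.14). The shares over all tested genes were 33.3% higher and 32.4% lower with sgRNA 11, and 32.2% higher and 30.7% lower with sgRNA 15. Ttyh3 rose by 0.47 and 0.46, Lrrc8d, a subunit of the volume-regulated anion channel, by 0.41 and 0.46, and Ano10 by 0.39 and 0.34. Clns1a fell, with log2 fold changes of -0.27 and -0.36. The median of the 8 exchanger and partner genes (0.17 and 0.21) lay above the medians of these other chloride genes, a difference that was not tested.

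Clcn7 and Ostm1 are also osteoclast genes, and the other genes of osteoclast acid secretion did not share 1 direction. Of 6 tested, 2 rose and 3 fell with sgRNA 11 and 4 rose and 2 fell with sgRNA 15. Over all tested genes, 33.3% rose and 32.4% fell with sgRNA 11, and 32.2% rose and 30.7% fell with sgRNA 15. Mixed directions were thus not particular to this list. Tcirg1, the pump subunit of the ruffled border, had a log2 fold change of 0.03 with sgRNA 11 (adjusted p = 0.260) and rose by 0.39 with sgRNA 15. Snx10 rose by 0.47 and 0.51. Car2, carbonic anhydrase II, fell, with log2 fold changes of -1.01 and -1.55, and so did Tnfrsf11a, the receptor for RANKL, with -0.21 and -0.54. Acp5, a defining osteoclast enzyme, was at 0 in every library. The 7 osteoclast markers together had 47.9 to 49.6 CPM in the safe libraries, 67.8 to 73.8 with sgRNA 11 and 63.4 to 65.7 with sgRNA 15, with 2 of the 7 over 1 CPM. Of these 2, the transcription factor gene Nfatc1 rose with both guides and carried the sum (41.8 to 43.9, 63.8 to 69.8 and 59.6 to 61.3 CPM), whereas Dcstamp, needed for osteoclast fusion, fell with both (5.05 to 5.40, 2.07 to 3.29 and 3.09 to 3.86 CPM). Their part in the Clcn7 and Ostm1 values was not tested.

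The MiT/TFE factors, which bind sites with the core CACGTG, were measured as RNA only. Of 3 tested, Tfeb fell with both guides (log2 fold changes of -0.21 and -0.53), Mitf rose with sgRNA 15 (0.23, adjusted p = 0.000606) and had 0.06 with sgRNA 11 (adjusted p = 0.402, edgeR). Tfe3 had 0.08 with sgRNA 11 (adjusted p = 0.0624) and fell with sgRNA 15 (-0.17, adjusted p = 5.39e-05). Tfeb was thus lowest in the sgRNA 15 libraries. Whether these factors had a part in the Clcn7 values was not tested.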

How the data were processed

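Whole-number read counts per Ensembl gene in 9 libraries were deposited by the authors, 1 table per library, made with STAR and HTSeq on mm10 per the submitters' processing notes; versions, annotation and strand use: not given in the sources used here. The HTSeq tallies that name no gene were left out; genes held 79.3% to 80.7% of all entries. Genes were named from GENCODE M21. All 13453 genes passing edgeR's expression filter (minimum count 10, 99.9% of gene counts) were fitted together with edgeR 4.0.16 in R 4.3.3 (TMM, quasi-likelihood, group means, 6 residual degrees of freedom), with Benjamini-Hochberg adjustment over all tested genes in each of 4 contrasts. The median biological coefficient of variation was 3.83%. The scripts were tested on simulated counts. Alternatives used DESeq2 1.42.0, limma 3.58.1 (voom), other scalings and filters, a replicate block, a stricter threshold, only the groups compared, libraries left out in turn, longest-transcript lengths and, chosen after seeing the data, a GC and length correction. Genes named are the 8 members, Slc12a9, defining cell markers, the 3 genes closest to each member, leaving out predicted models, pseudogenes and 1 gene not reported here, and, from each list, up to 4 ranked by p in the contrast of both guides' mean with safe. The members and lists were chosen with earlier results of these data known, and no list was tested as a set. The p-values cover the spread between these libraries only.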

Additional observations from a re-analysis of the deposited data

Results flagged for a closer look

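The effects of the guides differed for 4 of the 8 members by the direct edgeR test of sgRNA 15 against sgRNA 11. Of all tested genes, 33.5% were called in the same test (18% higher and 15.5% lower). Clcn7 was higher with sgRNA 15 by 0.43 on the log2 scale (adjusted p = 4.84e-17), in 3 of 3 libraries. Ostm1 was higher by 0.31 (adjusted p = 1.83e-06), also in 3 of 3. Clcn6 was higher by 0.43 (adjusted p = 5.42e-06), its level with sgRNA 15 lying between those of safe and sgRNA 11. Clcn3 was higher by 0.11 (adjusted p = 0.0450), which did not hold under most alternatives.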

How the results depend on the processing

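The calls of Clcn7, Ostm1, Clcn6, Tmem9 and Tmem9b against safe, and those of Clcn7, Ostm1 and Clcn6 between the guides, held in all 19 alternatives run for each. Of 600 alternative values of the members' log2 fold changes, 565 kept direction and side of the threshold, 18 newly passed it, 16 no longer did and 1 reversed. The reversed value was Clcn5 for sgRNA 15 against sgRNA 11, which ran from -0.0419 to 0.0439 as single libraries were left out, the latter without sgRNA 15 replicate 1 (adjusted p = 0.621, edgeR). Members called ranged over all alternatives from 5 to 7 with sgRNA 11, 7 to 8 with sgRNA 15, 7 to 8 for the mean of guides and 3 to 4 between guides. With the settings used above, 65.8%, 62.9%, 68% and 33.5% of all tested genes were called in these contrasts. Without safe replicate 3, Clcn3 was not called for the mean of guides (0.09, adjusted p = 0.0796, against 0.14). The GC and length correction moved the higher calls for the mean of guides from 4672 of 9147 to 4005 of 9108, and library size alone moved them to 5091 of 9184; the cause was not tested. Deviations of same-numbered libraries from their group means correlated weakly at most (r from -0.0077 to 0.058). Of 9 libraries, 5 matched best with a library of their own number in another group. Whether that exceeds chance was not tested. With the replicate block, 6, 7, 7 and 4 members were called in the 4 contrasts, the added one being Clcn4 with sgRNA 11 (0.09, adjusted p = 0.0470), and 8940, 8550, 9236 and 4695 genes overall. At this depth the 95% interval of Clcn5 with sgRNA 15 ran from -0.20 to 0.01. Longest-transcript lengths changed levels per length, up to 7.66 against 3.68 for Clcn3 with sgRNA 15.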
